A study of Mus musculus with 6 samples.

Results

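The genes described here are 8 genes of MHC class II antigen presentation, *H2-Aa*, *H2-Ab1*, *H2-Eb1*, *H2-DMa*, *H2-DMb1*, *Cd74*, *Ciita* and *Ctss*, out of 51802 gene symbols measured by bulk RNA-seq of the mouse cochlea. They were taken by name, and the counts and FPKM values (counts scaled to transcript length and to the counted total) were summed over the transcripts listed under each symbol. RNA came from whole cochleae of mice aged 2 months on a C57/BL6J background, with 3 wildtype samples (replicates 3, 4 and 5) and 3 samples from heterozygous *Pou4f3(Δ/+)* littermates (replicates 1, 2 and 3). The *Δ* allele is a germ-line knock-in of a small deletion found in a family with DFNA15 deafness, and the second allele is wildtype. *Pou4f3* is a transcription factor of hair cells, and the comparison asks which cochlear transcripts differ between the genotypes before hair cells are widely lost. The sources used here do not say how many animals gave RNA to each sample.

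MHC class II molecules carry peptides from taken-up protein to the cell surface, where CD4+ T cells read them. *H2-Aa* and *H2-Ab1* encode the alpha and beta chains of I-A, and *H2-Eb1* encodes the beta chain of I-E. New chains bind the invariant chain, the product of *Cd74*, which fills the peptide groove. The protease cathepsin S (*Ctss*) trims the invariant chain down to a remnant called CLIP, and the heterodimer of *H2-DMa* and *H2-DMb1* exchanges CLIP for peptide. CIITA, the product of *Ciita*, is the coactivator on which transcription of class II genes depends. B cells, dendritic cells and many macrophages express these genes, and the cochlea holds resident macrophages in its lateral wall, nerve and sensory regions.

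Of the 8 genes, 5 lie on chromosome 17 in the class II region. CIITA acts through factors bound to a shared promoter module, an X element followed a short way downstream by a Y box. Promoter sequences from RefSeq (GRCm38.p6, 250 bases before each start) were matched by symbol for *H2-Aa*, *H2-Eb1*, *H2-DMa*, *H2-DMb1* and *Ctss*, and for the related genes *H2-DMb2*, *H2-Ob*, *H2-Oa* and *H2-Eb2*. The letters searched, on both strands, were AAC and TGANG with 2 or 3 bases between them for the X element and GATTGG for the Y box, and they were picked with these promoters in view. An X element followed by GATTGG after 8 to 30 bases was present before *H2-Aa*, *H2-Eb1*, *H2-DMb1*, *H2-DMb2* and *H2-Ob*. The same arrangement was found in 0.0944% of 32851 promoter windows, while 14.6% held GATTGG and 4.68% held the X element. Among the genes just named, it was not in the windows of *Ctss*, *H2-DMa*, *H2-Oa* or *H2-Eb2*. Windows of the remaining genes of the 8 are not reported here, so this list of absences may be incomplete. The windows of *H2-Aa* (chr17:34287857-34287912, minus strand), *H2-Eb1* (chr17:34305768-34305822, plus strand), *H2-DMb2* (chr17:34145118-34145173, plus strand) and *H2-Ob* (chr17:34238810-34238862, plus strand) are shown because they let the shared letters be read side by side, with the X element and the Y box in capitals.
H2-Aa: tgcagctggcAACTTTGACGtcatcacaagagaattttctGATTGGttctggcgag
H2-Eb1: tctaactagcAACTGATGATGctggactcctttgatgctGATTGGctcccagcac
H2-DMb2: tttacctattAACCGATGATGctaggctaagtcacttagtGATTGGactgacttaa
H2-Ob: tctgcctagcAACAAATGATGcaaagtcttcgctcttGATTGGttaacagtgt
The gap between the X element and GATTGG was 20 bases in *H2-Aa*, 18 in *H2-Eb1*, 19 in *H2-DMb2* and 16 in *H2-Ob*. These matches describe the letters and are not measurements of factor binding.

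Summed counts ranged from 14295069 to 17696784 per sample. *Pou4f3* itself was counted 68, 72 and 88 times in the wildtype and 66, 97 and 52 times in the *Pou4f3(Δ/+)* samples, totals to which both alleles contribute, so it gives no check of the labels. In what follows, values of a gene run in the order wildtype replicates 3, 4 and 5, then *Pou4f3(Δ/+)* replicates 1, 2 and 3. In a principal component analysis of log2 CPM (counts scaled to the library total), *Pou4f3(Δ/+)* replicates 1 and 2 stood apart on the first component (32.5% of the variance), at 23.17 and 40.19, while *Pou4f3(Δ/+)* replicate 3 at -16.41 lay among the wildtype samples (-21.49 to -11.69). Results are therefore given with and without those libraries. They were singled out from these same data, so p-values of fits without them cannot be taken at their nominal level. The summed CPM of 5 neutrophil markers ranged from 8980 to 11284 over the 6 samples, above that of 8 cochlear tissue markers, from 5350 to 7422, most of which was *Coch* (4969 to 6981 CPM). The 4 osteoclast markers summed to 610 to 1133 CPM. The hair cell markers *Otof* (mean of 5.01 FPKM in wildtype) and *Myo7a* (8.79 FPKM) were present.

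With all 6 samples, none of the 8 class II genes differed between the genotypes past the threshold of an adjusted p of 0.05 (edgeR quasi-likelihood test with Benjamini-Hochberg adjustment), and the same test called 0 of 17136 genes (0%). All 8 passed the filter on low counts. The fitted log2 fold change of *Pou4f3(Δ/+)* against wildtype was above 0 for 8 of the 8, beside 49.4% of all genes tested, and at least 0.2 for 7, beside 14.1% of all genes. The median over the 8 was 0.47, against -0.0027 over all genes. An unadjusted p under 0.05 was reached by 2 of them, *H2-Eb1* and *Cd74*, beside 7.64% of all genes. By DESeq2 on the same counts 0 of the 8 had an adjusted p under 0.05, where 0.373% of genes did, and 3 (*H2-Ab1*, *H2-Eb1* and *Ciita*) had an unadjusted p under 0.05, beside 6.72% of genes.

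The class II values followed the 2 libraries that stood apart. CPM of *Pou4f3(Δ/+)* replicates 1 and 2 lay above those of the other 4 samples for 6 of the 8 genes, all but *H2-DMa* and *Ctss*, and the same held for 14.9% of all genes. In 0 of the 8 did every *Pou4f3(Δ/+)* sample lie above every wildtype sample, as 6.07% of all genes did. Without replicates 1 and 2, the single remaining *Pou4f3(Δ/+)* sample gave a log2 fold change above 0 for 3 of the 8 (*H2-Eb1*, *H2-DMa* and *H2-DMb1*), beside 48.7% of the genes tested in that fit, and the median over the 8 was -0.01. An unadjusted p under 0.05 was then reached by 0 of the 8, beside 3.62% of genes. That fit assumes that the lone sample varies like the wildtype group. Without *Pou4f3(Δ/+)* replicate 3 instead, 6 of the 8, all but *H2-DMa* and *Ctss*, had an unadjusted p under 0.05, beside 17.4% of genes.

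**Figure D1:**
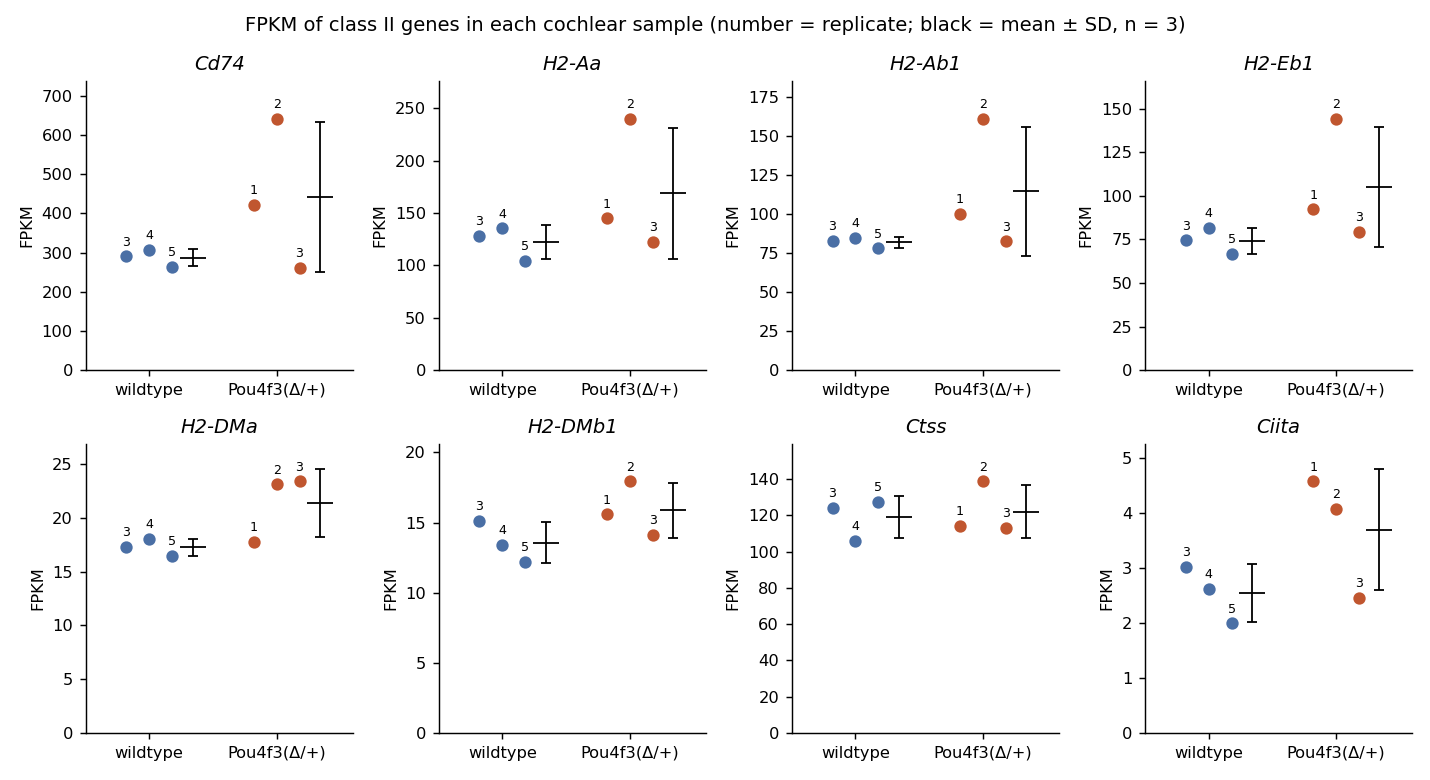
FPKM of the 8 class II genes in each cochlear sample, with a panel and a linear y axis from 0 for each gene, points for the samples (numbered by replicate) and black bars for the mean ± SD (n = 3). *Pou4f3(Δ/+)* replicate 2 is the highest point for 6 of the 8 genes, *Pou4f3(Δ/+)* replicate 3 for *H2-DMa* and replicate 1 for *Ciita*, and the groups overlap in every panel.

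The classical chains varied in parallel from sample to sample. *H2-Aa* (ENSMUSG00000036594, GRCm38 chromosome 17 from 34282744 to 34287823, minus strand) had 129, 135 and 104 FPKM in the wildtype samples, against 145, 240.0 and 122 FPKM in the *Pou4f3(Δ/+)* samples. Replicate 2 stood far above the rest, replicate 1 was slightly above the highest wildtype sample and replicate 3 fell inside the wildtype range. *H2-Ab1* (ENSMUSG00000073421, chromosome 17 from 34257689 to 34269419), its partner in I-A, had 82.9, 84.9 and 77.9 FPKM in the wildtype samples and 100.1, 161 and 82.4 FPKM in the *Pou4f3(Δ/+)* samples. *H2-Eb1* (ENSMUSG00000060586, chromosome 17 from 34305867 to 34316674) had 74.5, 81.7 and 66.7 FPKM in the wildtype samples, against 92.3, 144 and 79.2 FPKM in the *Pou4f3(Δ/+)* samples. Again replicate 2 was highest, replicate 1 next, and replicate 3 within the range of wildtype, as for *H2-Ab1*. The antisense gene *Gm20513*, which overlaps *H2-Eb1*, had at most 1 count in any sample.

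Group means of *H2-Aa* were 123 ± 16.2 FPKM in the wildtype samples, against 169 ± 62.5 FPKM in the *Pou4f3(Δ/+)* samples (SD, n = 3 each). The corresponding means were 81.9 ± 3.61 and 114 ± 41.1 FPKM for *H2-Ab1* and 74.3 ± 7.51 and 105 ± 34.4 FPKM for *H2-Eb1*. The SD among *Pou4f3(Δ/+)* samples was thus several times that among wildtype samples for each chain. From edgeR, the log2 fold change was 0.46 ± 0.23 (SE; adjusted p = 0.651) for *H2-Aa*, 0.48 ± 0.21 (SE; adjusted p = 0.643) for *H2-Ab1* and 0.51 ± 0.20 (SE; adjusted p = 0.643) for *H2-Eb1*. None of these passed the test. When *Pou4f3(Δ/+)* replicate 2 alone was left out, the log2 fold changes fell to 0.11 for *H2-Aa*, 0.14 for *H2-Ab1* and 0.20 for *H2-Eb1*. Without *Pou4f3(Δ/+)* replicates 1 and 2, the values were -0.02 for *H2-Aa*, -0.0009 for *H2-Ab1* and 0.07 for *H2-Eb1*, with an adjusted p of 1.00 by edgeR for each. Relative to the wildtype mean of CPM, *Pou4f3(Δ/+)* replicate 2 stood at 1.98-fold for *H2-Aa*, 1.98-fold for *H2-Ab1* and 1.97-fold for *H2-Eb1*, and replicate 1 at 1.18-fold, 1.20-fold and 1.24-fold.

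While the levels spanned 2.07-fold to 2.30-fold over the 6 samples in FPKM, the proportions between the chains were nearly even. The FPKM ratio of *H2-Aa* to *H2-Ab1* ranged from 1.34 to 1.59, and that of *H2-Eb1* to *H2-Ab1* from 0.857 to 0.963, with the groups overlapping in both. The C57BL/6 strain carries a class II haplotype that lacks a working I-E alpha chain. The alpha chain pseudogene *H2-Ea-ps*, looked at after its values were seen, was listed at 0 counts in all 6 samples. The beta chain transcript of I-E was therefore measured at levels close to those of *H2-Ab1* without counts for its alpha partner.

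*Cd74* (ENSMUSG00000024610, chromosome 18 from 60803848 to 60812652) was the most abundant of the 8 genes per length, at rank 162 of 17136 tested genes by mean FPKM in wildtype. It had 291, 306 and 264 FPKM in the wildtype samples, against 421, 642 and 262 FPKM in the *Pou4f3(Δ/+)* samples. Both extremes of the 6 samples were thus *Pou4f3(Δ/+)* samples, replicate 2 at the top and replicate 3 at the bottom. Means were 287 ± 21.7 FPKM in the wildtype samples, against 442 ± 191 FPKM in the *Pou4f3(Δ/+)* samples (SD, n = 3 each), and the log2 fold change of 0.62 ± 0.27 (SE; adjusted p = 0.643 by edgeR) was the largest among the 8. Without *Pou4f3(Δ/+)* replicate 3 the log2 fold change of *Cd74* was 0.90 ± 0.16 (SE; adjusted p = 0.0469 by edgeR), while 1.1% of all genes were called in that fit. Leaving out *Pou4f3(Δ/+)* replicate 2 alone gave 0.24 (adjusted p = 0.963 by edgeR), and without *Pou4f3(Δ/+)* replicates 1 and 2 it was -0.15 ± 0.11 (SE; adjusted p = 1.00 by edgeR). The call and its direction thus rested on which *Pou4f3(Δ/+)* libraries were included.

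The invariant chain is made in a short form and in a longer form with an added thyroglobulin-type domain, and both were listed. *Cd74-201* (ENSMUST00000050487, 1224 bases spliced, 215 residues) is the short form and *Cd74-202* (ENSMUST00000097563, 1410 bases spliced, 279 residues) the long form. The long form held 18.3%, 18.7% and 19.1% of *Cd74* FPKM in the wildtype samples, against 15.7%, 16.2% and 20.2% in the *Pou4f3(Δ/+)* samples. Its share was lowest in the 2 samples with the highest *Cd74* FPKM and highest in the sample with the lowest. In the test per transcript, the log2 fold change was 0.66 ± 0.33 (SE; adjusted p = 0.999 by edgeR) for the short form and 0.47 ± 0.25 (SE; adjusted p = 0.999 by edgeR) for the long form. The shares rest on how the authors' counting divided reads between overlapping transcripts.

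*Ciita* (ENSMUSG00000022504, chromosome 16 from 10480059 to 10528418) was by far the least abundant per length, at rank 12791. It had 3.02, 2.62 and 1.99 FPKM in wildtype replicates 3, 4 and 5, from 274, 197 and 180 counts, and 4.57, 4.07 and 2.45 FPKM in the *Pou4f3(Δ/+)* samples, from 425, 331 and 189 counts. *Ciita* was the only gene of the 8 with its highest value in *Pou4f3(Δ/+)* replicate 1, and replicate 3 fell inside the wildtype range. The log2 fold change was 0.54 ± 0.24 (SE; adjusted p = 0.643 by edgeR), and -0.07 ± 0.24 (SE) without *Pou4f3(Δ/+)* replicates 1 and 2. The FPKM ratio of *H2-Ab1* to *Ciita* ranged from 21.9 in *Pou4f3(Δ/+)* replicate 1 to 39.5 in *Pou4f3(Δ/+)* replicate 2, both ends within a single genotype. *Ciita* is transcribed from several promoters that differ between cell types, but it was listed with 1 transcript (*Ciita-201*), so their use cannot be told apart here. It overlaps *Dexi* on the opposite strand, which had a log2 fold change of -0.14 ± 0.13 (SE; adjusted p = 0.796 by edgeR); whether the counting used strand is not given in the sources used here.

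The peptide exchange genes varied less. *H2-DMa* (ENSMUSG00000037649, chromosome 17 from 34119541 to 34139101) had 17.3, 18.1 and 16.5 FPKM in the wildtype samples, against 17.8, 23.1 and 23.4 FPKM in the *Pou4f3(Δ/+)* samples. In FPKM *Pou4f3(Δ/+)* replicate 3 was as high as replicate 2, and replicate 1 fell inside the wildtype range, whereas in CPM replicate 3 (25.6) was below replicate 2 (29.1). *H2-DMa* had a log2 fold change of 0.26 ± 0.14 (SE; adjusted p = 0.661 by edgeR), which was 0.28 without *Pou4f3(Δ/+)* replicates 1 and 2, and it was the only 1 of the 8 whose value did not move toward 0 or below it in that fit. The value was 0.15 without *Pou4f3(Δ/+)* replicate 2 alone and 0.38 without replicate 1 alone. A retained-intron transcript, *H2-DMa-202*, held 22.5% to 49.3% of *H2-DMa* FPKM, with the groups overlapping. The protein-coding *H2-DMa-201* had 13.4, 9.53 and 9.49 FPKM in the wildtype samples, against 10.6, 15.1 and 11.9 FPKM in the *Pou4f3(Δ/+)* samples, so that replicate 3 lay inside the wildtype range for this transcript. *H2-DMb1* (ENSMUSG00000079547, chromosome 17 from 34153072 to 34160230) had 15.1, 13.4 and 12.2 FPKM in the wildtype samples, against 15.6, 17.9 and 14.1 FPKM in the *Pou4f3(Δ/+)* samples. Its log2 fold change was 0.23 ± 0.13 (SE; adjusted p = 0.682 by edgeR) with all samples, 0.12 without *Pou4f3(Δ/+)* replicate 2 and 0.03 without *Pou4f3(Δ/+)* replicates 1 and 2.

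*Ctss* (ENSMUSG00000038642, chromosome 3 from 95526786 to 95556403) showed the smallest difference. It had 124, 106 and 128 FPKM in the wildtype samples, against 114, 139 and 113 FPKM in the *Pou4f3(Δ/+)* samples, and 2 of the 3 *Pou4f3(Δ/+)* samples lay within the wildtype range. The log2 fold change was 0.03 ± 0.11 (SE; adjusted p = 0.953 by edgeR). The FPKM ratio of *Cd74* to *Ctss* was 2.34, 2.89 and 2.07 in the wildtype samples, against 3.69, 4.63 and 2.31 in the *Pou4f3(Δ/+)* samples. In *Pou4f3(Δ/+)* replicates 1 and 2 the substrate transcript was thus higher relative to that of its protease than in the other 4 samples.

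**Figure D2:**
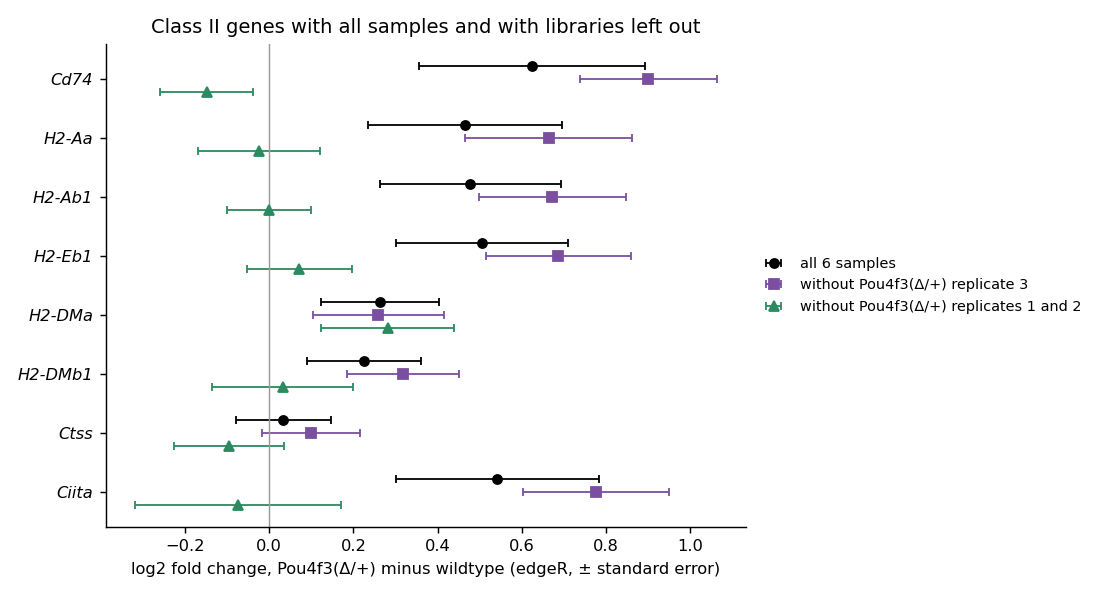
Log2 fold change of *Pou4f3(Δ/+)* minus wildtype from edgeR (x axis, bars for the SE) for the 8 class II genes (y axis), with all 6 samples (black circles), without *Pou4f3(Δ/+)* replicate 3 (purple squares) and without *Pou4f3(Δ/+)* replicates 1 and 2 (green triangles). *Cd74* moves from 0.62 to 0.90 and -0.15, while *H2-DMa* lies between 0.26 and 0.28 in these 3 fits.

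By mean FPKM in wildtype, the order of the 8 genes was *Cd74* (287), *H2-Aa* (123), *Ctss* (119), *H2-Ab1* (81.9), *H2-Eb1* (74.3), *H2-DMa* (17.3), *H2-DMb1* (13.6) and *Ciita* (2.54). The ranges of the 3 wildtype samples overlapped for *H2-Aa* and *Ctss* and for *H2-Ab1* and *H2-Eb1*, and did not overlap for the other neighbours in this order. In *Pou4f3(Δ/+)* samples the order of the means was the same, at 442, 169, 122, 114, 105, 21.4, 15.9 and 3.70 FPKM. All 18 transcripts listed for the 8 genes were found in GENCODE M21, and 12 passed the filter on low counts per transcript, while the other 6 had at most 30 counts in every sample. Of the 12, 0 had an adjusted p under 0.05 by edgeR (0% of 38347 transcripts did) and 0 by DESeq2 (0.339% did). An unadjusted p under 0.05 was reached by 0 of the 12 with edgeR, beside 4.14% of transcripts, and by 2 with DESeq2, beside 4.49%.

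Related class II genes outside the 8 followed the same libraries. *H2-Ob* encodes the beta chain of H2-O, an inhibitor of the H2-DM exchange factor expressed mainly in B cells, and *H2-DMb2* is a second H2-DM beta chain. *H2-Ob* had 10.1, 8.32 and 8.36 FPKM in the wildtype samples, against 19.8, 19.7 and 7.72 FPKM in the *Pou4f3(Δ/+)* samples. *Pou4f3(Δ/+)* replicates 1 and 2 were about equal and well above the rest, and replicate 3 was below every wildtype sample. The same arrangement held for *H2-DMb2*, at 9.67, 7.93 and 7.92 FPKM in the wildtype samples, against 15.4, 17.6 and 6.08 FPKM in the *Pou4f3(Δ/+)* samples, and for *H2-Eb2*, at 1.05, 0.89 and 0.82 FPKM in the wildtype samples, against 2.71, 2.78 and 0.40 FPKM in the *Pou4f3(Δ/+)* samples. The *H2-Eb2* values rest on 40, 28 and 31 counts and on 106, 95 and 13 counts. These genes were chosen for naming after their values were seen. *H2-Oa*, the alpha chain of H2-O, had 4.57, 3.86 and 3.12 FPKM in the wildtype samples, against 5.30, 6.36 and 2.67 FPKM in the *Pou4f3(Δ/+)* samples.

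By edgeR the log2 fold change was 0.80 ± 0.35 (SE; adjusted p = 0.643) for *H2-Ob*, 0.65 ± 0.34 (SE; adjusted p = 0.660) for *H2-DMb2*, 1.11 ± 0.58 (SE; adjusted p = 0.660) for *H2-Eb2* and 0.31 ± 0.33 (SE; adjusted p = 0.811) for *H2-Oa*. Without *Pou4f3(Δ/+)* replicate 3, *H2-Ob* (log2 fold change of 1.18, adjusted p = 0.00871 by edgeR), *H2-DMb2* (1.00, adjusted p = 0.0273) and *H2-Eb2* (1.59, adjusted p = 0.0284) were called higher, and without *Pou4f3(Δ/+)* replicates 1 and 2 their values were -0.46, -0.50 and -1.21. *H2-Oa* was not called without *Pou4f3(Δ/+)* replicate 3 (0.61, adjusted p = 0.234 by edgeR) and had -0.56 without *Pou4f3(Δ/+)* replicates 1 and 2. With *Pou4f3(Δ/+)* replicate 2 alone left out, *H2-Oa* had 0.05 and *H2-DMb2* 0.38. Within the H2-DM and H2-O genes the proportions therefore shifted between libraries. The FPKM ratio of *H2-DMb2* to *H2-DMb1* was 0.592 to 0.650 in wildtype samples and 0.986, 0.979 and 0.432 in the *Pou4f3(Δ/+)* samples, and that of *H2-Ob* to *H2-DMb1* was 0.621 to 0.686 and then 1.27, 1.10 and 0.548. In both ratios the wildtype samples lay between *Pou4f3(Δ/+)* replicate 3 and the other *Pou4f3(Δ/+)* samples. The spliced transcripts of *H2-DMb1* and *H2-DMb2* are 94.6% identical over their aligned bases, and 27.2% of the 50-base windows of *H2-DMb1* occur in *H2-DMb2*, so the split of reads between these 2 genes is uncertain. *H2-Eb1* and *H2-Eb2* are 78.4% identical and share 0 windows of 50 bases.

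**Figure D3:**
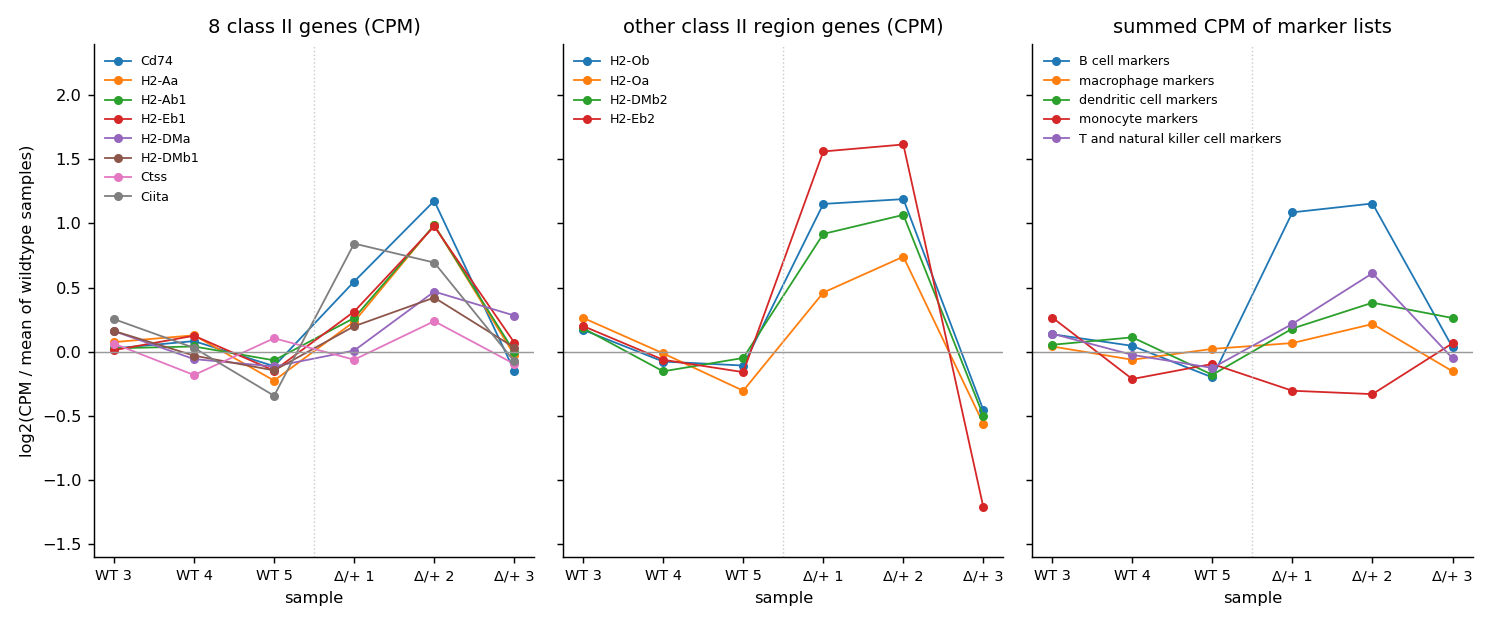
Log2 ratio of CPM to the mean of the wildtype samples (y axis) in each sample (x axis, WT for wildtype and Δ/+ for *Pou4f3(Δ/+)*, with the replicate number) for the 8 class II genes, for other class II region genes and for summed marker lists, where lines only join the values of a gene or list. B cell markers and *H2-Ob* reach about the same level in *Pou4f3(Δ/+)* replicates 1 and 2, whereas *Cd74* and the classical chains are higher in replicate 2.

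Among the other genes of the pathway, the lists of which were chosen with earlier results known, 0 of 45 tested genes had an adjusted p under 0.05 by edgeR with all samples and 4 had an unadjusted p under 0.05, which is 8.89% of them beside 7.64% of all genes. DESeq2 called 1 of the 45, *Irf4*, beside 0.373% of all genes. Of 13 class II accessory and peptide loading genes, 12 were tested, 6 had a log2 fold change above 0 and 6 below, the median was 0.07 and 0 had an unadjusted p under 0.05. The endosomal protease genes *Ctsb* (198 ± 7.32 FPKM in the wildtype samples, against 192 ± 0.777 FPKM in the *Pou4f3(Δ/+)* samples, SD, n = 3 each) and *Ctsd* (360.0 ± 10.9 and 359.5 ± 13.3 FPKM) and the cathepsin inhibitor gene *Cst3* (385 ± 47.2 and 426 ± 14.4 FPKM) were the most abundant of that list, with log2 fold changes of -0.05, -0.0028 and 0.15. With 1 sample left out, *Ctsb* ranged from -0.07 to -0.01, *Ctsd* from -0.03 to 0.04 and *Cst3* from 0.07 to 0.25. *Ifi30*, which encodes a lysosomal thiol reductase, did not pass the filter. Without *Pou4f3(Δ/+)* replicate 3, 3 of the 12 had an adjusted p under 0.05 by edgeR, beside 1.1% of all genes, namely *H2-Ob*, *H2-DMb2* and *H2-Eb2*.

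No factor that binds the X element or the Y box passed the test. Of 7 such genes, 6 had a log2 fold change above 0, with a median of 0.08. *Nfya* (33.1 ± 2.92 FPKM in the wildtype samples, against 34.3 ± 6.05 FPKM in the *Pou4f3(Δ/+)* samples) and *Nfyc* (32.6 ± 1.69 and 30.7 ± 2.48 FPKM), subunits of the Y box factor NF-Y, had log2 fold changes of 0.10 (-0.02 without *Pou4f3(Δ/+)* replicate 1) and -0.08, and *Creb1* (17.0 ± 0.534 and 19.0 ± 1.75 FPKM) had 0.19. Only *Nfyb*, the remaining NF-Y subunit, had an unadjusted p under 0.05, with 16.7, 16.2 and 13.7 FPKM in the wildtype samples, against 19.3, 18.8 and 17.9 FPKM in the *Pou4f3(Δ/+)* samples. Its groups did not overlap, as for 6.07% of all genes in this direction, and the log2 fold change was 0.30 ± 0.09 (SE; adjusted p = 0.643 by edgeR). The components of the X element factor RFX, *Rfx5*, *Rfxap* and *Rfxank*, had values of 0.06, 0.08 and 0.06. With 1 sample left out, these ranged from 0.0017 to 0.13, from 0.02 to 0.17 and from 0.01 to 0.09.

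Of the genes that lead to *Ciita* transcription, 8 are reported here, 6 of them with a log2 fold change above 0 and 2 below, with a median of 0.10. Interferon gamma acts through *Ifngr1*, *Ifngr2*, *Jak1* and *Jak2*, and the receptor gene *Ifngr1* (54.0 ± 3.18 FPKM in the wildtype samples, against 57.6 ± 7.06 FPKM in the *Pou4f3(Δ/+)* samples) and the kinase gene *Jak1* (56.7 ± 2.36 and 62.1 ± 4.52 FPKM) had log2 fold changes of 0.10 and 0.13. *Spi1*, which encodes the myeloid and B cell factor PU.1, had 66.8 ± 3.56 and 68.3 ± 9.21 FPKM and a log2 fold change of 0.04. The values of *Ifngr1* and *Spi1* turned to -0.03 and -0.09 without *Pou4f3(Δ/+)* replicate 2. Of the 8, *Irf4* and *Irf8* had an unadjusted p under 0.05 by edgeR, both with a positive log2 fold change, beside 7.64% of all genes.

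*Irf4*, a transcription factor of B cells, plasma cells and some dendritic cells, had the smallest p of the pathway genes. It had 3.03, 4.43 and 2.97 FPKM in the wildtype samples, against 6.45, 8.27 and 5.68 FPKM in the *Pou4f3(Δ/+)* samples, without overlap, as for 6.07% of all genes in this direction. The log2 fold change of *Irf4* was 0.97 ± 0.19 (SE; adjusted p = 0.643 by edgeR), and DESeq2 on the same counts gave 0.98 ± 0.20 (SE; adjusted p = 0.00167), so that the call depended on the tool. *Irf4* had 1.10 ± 0.19 (SE; adjusted p = 0.0410 by edgeR) without *Pou4f3(Δ/+)* replicate 3. Unlike the class II genes other than *H2-DMa*, it was also higher in *Pou4f3(Δ/+)* replicate 3 than in any wildtype sample, and its log2 fold change was 0.69 ± 0.23 (SE; adjusted p = 1.00 by edgeR) without *Pou4f3(Δ/+)* replicates 1 and 2. *Irf8*, a factor of macrophages, dendritic cells and B cells, had 30.5, 27.8 and 28.8 FPKM in the wildtype samples, against 29.5, 41.2 and 35.0 FPKM in the *Pou4f3(Δ/+)* samples, with overlap and a log2 fold change of 0.29 ± 0.12 (SE; adjusted p = 0.643 by edgeR), which was 0.14 without *Pou4f3(Δ/+)* replicate 2.

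Signals that accompany class II at the T cell contact were low in level. Of 9 such genes, 8 were tested, 5 with a log2 fold change above 0 and a median of 0.07. The co-stimulatory ligand gene *Icosl* (11.1 ± 0.955 FPKM in the wildtype samples, against 12.02 ± 2.30 FPKM in the *Pou4f3(Δ/+)* samples) had 0.09 and the activation marker *Cd83* (5.52 ± 0.394 and 5.80 ± 0.662 FPKM) had 0.06. *Cd274*, which encodes the inhibitory ligand PD-L1, had 4.38, 2.47 and 5.29 FPKM in the wildtype samples, against 3.07, 2.60 and 2.09 FPKM in the *Pou4f3(Δ/+)* samples, with overlap and a log2 fold change of -0.65 ± 0.27 (SE; adjusted p = 0.643 by edgeR), which was -0.41 without wildtype replicate 5. Class I presentation genes had values on both sides of 0. Of 10 tested, 3 had a log2 fold change above 0 and 7 below, the median was -0.12 and 0 had an unadjusted p under 0.05. *B2m* (1405 ± 156 FPKM in the wildtype samples, against 1442 ± 324 FPKM in the *Pou4f3(Δ/+)* samples), the light chain of class I, had 0.04, and the heavy chain genes *H2-D1* (229 ± 11.1 and 244 ± 56.5 FPKM) and *H2-K1* (206 ± 12.8 and 239 ± 86.7 FPKM) had 0.10 and 0.21. These 3 values rested on *Pou4f3(Δ/+)* replicate 2, since without it they were -0.17 for *B2m*, -0.12 for *H2-D1* and -0.14 for *H2-K1*, and for *B2m* the value also turned without wildtype replicate 3 (-0.05). *Icosl* and *Cd83* likewise had -0.09 and -0.02 without *Pou4f3(Δ/+)* replicate 2. Without *Pou4f3(Δ/+)* replicates 1 and 2, the medians of the 5 pathway lists ranged from -0.23 to -0.0024.

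**Figure D4:**
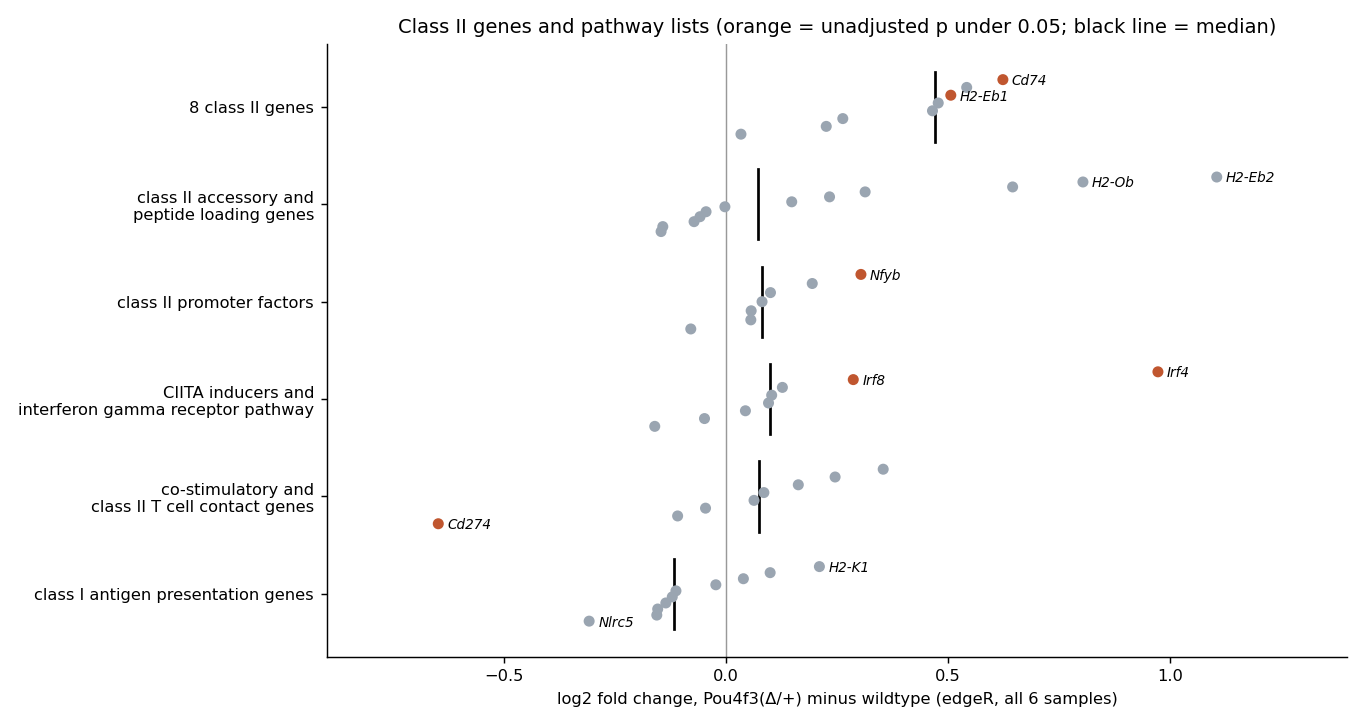
Log2 fold change of *Pou4f3(Δ/+)* minus wildtype (x axis, edgeR, all 6 samples) for each tested gene reported of the 8 class II genes and of 5 pathway lists (rows), with genes of an unadjusted p under 0.05 in orange and list medians as black lines. The median is 0.47 for the 8 class II genes and between -0.12 and 0.10 for the pathway lists.

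Markers of B cells differed between the same libraries, and in bulk RNA more cells of a type and more RNA per cell cannot be told apart. The summed CPM of 9 B cell markers ranged from 264 to 334 in wildtype samples and was 646, 677 and 311 in the *Pou4f3(Δ/+)* samples. All 9 had a log2 fold change above 0 and 7 an unadjusted p under 0.05 by edgeR, with 4 above 0 and 0 under 0.05 without *Pou4f3(Δ/+)* replicates 1 and 2. None of the B cell markers was at 0 in any sample. The 6 B cell precursor markers summed to 161 to 202 CPM in wildtype samples and 207 to 267 CPM in *Pou4f3(Δ/+)* samples, replicate 3 being the lowest of the latter, with *Ebf1* alone at 123 to 154 CPM of these sums. Of the 6, all but *Ebf1* had an unadjusted p under 0.05 by edgeR, beside 7.64% of all genes, and in those 5 the genotypes did not overlap, *Pou4f3(Δ/+)* being higher, as for 6.07% of all genes. DESeq2 called 4 of the precursor markers (*Vpreb3*, *Igll1*, *Rag1* and *Dntt*), all higher, beside 0.373% of all genes. Among the B cell markers, 3 of 9 (*Cd79b*, *Pax5* and *Blk*) also had genotypes that did not overlap, *Pou4f3(Δ/+)* being higher. In the fit that left out *Pou4f3(Δ/+)* replicates 1 and 2, these 3 had log2 fold changes of 0.26, 0.21 and 0.42, and the 6 precursor markers were all above 0, with a median of 0.71 and 0 under an unadjusted p of 0.05. The difference between both lists was not tested. The summed CPM of the 8 class II genes was 931, 925 and 846 in the wildtype samples, against 1139, 1725 and 861 in the *Pou4f3(Δ/+)* samples. B cell markers were thus about equally high in *Pou4f3(Δ/+)* replicates 1 and 2, whereas the class II sum was higher in replicate 2. The CPM of *Cd74* divided by the summed CPM of the B cell markers was 1.10, 1.22 and 1.26 in wildtype and 0.815, 1.20 and 1.04 in *Pou4f3(Δ/+)* samples, and that of *H2-Ob* was 0.0600 to 0.0696 in wildtype and 0.0683, 0.0669 and 0.0465 in *Pou4f3(Δ/+)* samples.

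The summed CPM of 10 macrophage markers ranged from 827 to 889 in wildtype and from 777 to 1004 in *Pou4f3(Δ/+)* samples, with 7 of 10 above 0 in log2 fold change and 3 with an unadjusted p under 0.05 by edgeR (2 higher and 1 lower), beside 7.64% of all genes. With *Pou4f3(Δ/+)* replicates 1 and 2 left out, 6 of the 10 had an unadjusted p under 0.05, beside 3.62% of genes, with *Cx3cr1* higher and *C1qa*, *C1qb*, *C1qc*, *Cd68* and *Fcgr1* lower, and the median was -0.19. The CPM of *Ctss* divided by that sum was 0.172 to 0.198 in wildtype and 0.171 to 0.195 in *Pou4f3(Δ/+)* samples, and the corresponding ratio of *Cd74* was 0.379 to 0.461 in wildtype and 0.581, 0.811 and 0.418 in the *Pou4f3(Δ/+)* samples. *Cd74* was thus higher relative to macrophage markers in *Pou4f3(Δ/+)* replicates 1 and 2 than in the other samples, and *Ctss* was not. The 8 dendritic cell markers summed to 58.0 to 71.1 CPM in wildtype and 74.5 to 85.7 CPM in *Pou4f3(Δ/+)* samples, and 2 of the 7 tested had an unadjusted p under 0.05 by edgeR, both higher, beside 7.64% of all genes. In the fit that left out *Pou4f3(Δ/+)* replicates 1 and 2, all 7 were above 0, with a median of 0.20, and 1 had an unadjusted p under 0.05. The summed CPM of 4 monocyte markers ranged from 2394 to 3339 in wildtype and from 2206 to 2905 in *Pou4f3(Δ/+)* samples, most of it *Lyz2*. Of these 4, 3 had a log2 fold change below 0, and *Ly6c2* (-0.36) and *S100a4* (-0.54) had an unadjusted p under 0.05. Among the 5 neutrophil markers only *Mpo* (-0.40) did. The 6 T and natural killer cell markers summed to 45.2 to 54.4 CPM in wildtype and to 57.4, 75.4 and 47.6 CPM in *Pou4f3(Δ/+)* samples, and *Nkg7*, the only 1 of the 6 with a log2 fold change below 0, made up 29.0 to 44.0 CPM of this. The median log2 fold change of the 6 was 1.22, and 4 had an unadjusted p under 0.05, all higher, beside the same 7.64%. *Cd3e*, *Cd8a* and *Trac* were called by edgeR without *Pou4f3(Δ/+)* replicate 3, beside 1.1% of all genes, and *Cd3e* was also called by DESeq2 with all samples. With *Pou4f3(Δ/+)* replicates 1 and 2 left out, 2 of the 6 were above 0 and the median was -0.18. T cell markers were thus high in the same libraries as B cell markers. The 4 erythroid markers summed to 7195 to 8130 CPM in wildtype and to 9357, 11031 and 7420 CPM in *Pou4f3(Δ/+)* samples. Of the 8 cochlear tissue markers, 3 had a log2 fold change above 0 and 5 below, with a median of -0.09. *Kcnq1* and *Kcne1*, which encode subunits of the potassium channel of strial marginal cells, had an unadjusted p under 0.05 by edgeR. Both were lower, beside 7.64% of all genes in either direction. In 2 of the 8, *Kcne1* among them, every *Pou4f3(Δ/+)* sample lay below every wildtype sample, as for 1130 of 17136 genes. *Kcne1* had 75.7, 77.1 and 76.5 CPM in the wildtype samples, against 41.6, 26.1 and 60.8 CPM in the *Pou4f3(Δ/+)* samples, lowest in the same libraries in which the class II sum was highest. Its log2 fold change was -0.84 ± 0.24 (SE; adjusted p = 0.643 by edgeR, 0.0359 by DESeq2), and *Kcnq1* had -0.45 ± 0.13 (SE; adjusted p = 0.643 by edgeR, 0.225 by DESeq2). *Kcne1* and *Kcnq1* were both called by edgeR (adjusted p = 0.0284 each) without *Pou4f3(Δ/+)* replicate 3, beside 1.1% of all genes. No marker of these lists was at 0 counts in any sample. The part of these cells in the class II values was not tested.

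By the root mean square difference between log2 CPM profiles, each centred on its mean over the 6 samples, the genes most like the averaged profile of the 8 were *A630001G21Rik*, *Hmgb1-ps8*, *Fam65b*, *Ms4a2*, *Cd37*, *Fgd2*, *Apobec3*, *Pou2f2*, *Ccr3* and *C730034F03Rik*. Their differences from it were 0.0688 to 0.0936 on the log2 scale, against a median of 0.556 over the 4135 genes compared, which were those that varied at least as much as the averaged profile. These genes were picked for the smallest differences, so their distance from that median is no result. Among the 8 themselves *H2-Eb1* (0.101) and *H2-Ab1* (0.101) lay nearest to the average and *Ciita* (0.242) and *Ctss* (0.236) farthest. Each of the 8 is part of that average, and *H2-DMa*, *H2-DMb1* and *Ctss* varied less than the genes compared. The distances of the 8 are therefore not on the same footing as those of the other genes. *Cd37* is a tetraspanin gene of B cells and other leukocytes and *Pou2f2* encodes the lymphoid factor Oct-2, while *Ms4a2* encodes the beta chain of the high-affinity IgE receptor of mast cells and basophils and *Ccr3* a chemokine receptor of eosinophils. *Cd37* had a mean of 108 CPM in wildtype and 146 CPM in *Pou4f3(Δ/+)* samples, *Pou2f2* of 40.6 and 54.4 CPM and *Ms4a2* of 8.05 and 10.9 CPM. The likeness is a description over 6 libraries, 2 of which stood apart for many genes.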

How the data were processed

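Bulk RNA-seq of 6 cochlear RNA samples was used, 3 per genotype. For each sample the authors deposited expected counts per transcript (estimated fragments, not normalized; 82.2% of those above 0 were not whole within 1e-06) and FPKM values per transcript, which the authors scaled to transcript length and to the sample's counted total. The library protocol names poly(A) selection or rRNA removal without saying which. The submitters' notes name build mm8 and DESeq2, while the listed transcripts carry Ensembl identifiers; the aligner, counter, annotation and use of strand are not given in the sources used here. Coordinates are from GENCODE M21 (GRCm38).

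Counts and FPKM were summed per gene symbol. Counts were rounded and tested with edgeR 4.0.16 in R 4.3.3 (filterByExpr with a minimum count of 10 and a minimum total of 15, TMM scaling, quasi-likelihood test over 6 samples without covariates, Benjamini-Hochberg adjustment over all features). The standard error (SE) was taken as the size of the fitted log2 change over the root of F. CPM are TMM-scaled, and log2 CPM used a prior count of 2. DESeq2 1.42.0, limma 3.58.1 on log2(FPKM + 0.5), other pseudocounts, scalings and filters, and left-out samples were alternatives. Each test was tested on simulated data first. Nothing states that samples came from separate animals, so p-values measure only the spread between samples. Precision is limited by 3 samples per group, and each of the 8 genes had at least 180 counts in every sample.

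The 8 genes and all lists were chosen with earlier results of these data known. From each pathway list, the 3 genes of highest mean log2 CPM and all with an unadjusted p under 0.05 were named, together with every transcript of the 8 genes past the filter and the 10 genes of most similar profile. One gene of these lists is not reported here and was left out of the counts and median of its list.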

Additional observations from a re-analysis of the deposited data

How the results depend on the processing

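No paired analysis was possible because the genotypes share fewer than 2 replicate numbers. Of 120 values of the 8 genes under 15 alternative settings, 112 kept their direction and their side of the threshold. Direction turned without *Pou4f3(Δ/+)* replicates 1 and 2 for *H2-Aa* (-0.0247), *H2-Ab1* (-0.0009), *Cd74* (-0.1486), *Ciita* (-0.0746) and *Ctss* (-0.096), and for *Ctss* also without *Pou4f3(Δ/+)* replicate 2 (-0.0801) and without wildtype replicate 4 (-0.045), in a range of -0.0801 to 0.0991 with 1 sample left out. *Cd74* passed the threshold without *Pou4f3(Δ/+)* replicate 3 (log2 fold change of 0.90, adjusted p = 0.0469 by edgeR), while its adjusted p ranged up to 1.00 under the other settings. With all 6 samples the smallest adjusted p of any of the 8 was 0.420 under any setting.

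Genes called numbered 0 with the edgeR test on all samples (1309 at an unadjusted p under 0.05), 64 with DESeq2, 9 without a filter on low counts, 6 without *Pou4f3(Δ/+)* replicates 1 and 2, and 0 to 193 with 1 sample left out, the highest without *Pou4f3(Δ/+)* replicate 3 and 3 without wildtype replicate 4. Transcripts called numbered 0 (1586 at an unadjusted p under 0.05), 130 with DESeq2, 1 without a filter and 0 to 3 with 1 sample left out, the highest without wildtype replicate 3 and 1 without *Pou4f3(Δ/+)* replicate 3. The causes were not tested. Pathway genes with an unadjusted p under 0.05 numbered 4 of 45 with all samples (8.89%, beside 7.64% of all genes) and 12 of 45 without *Pou4f3(Δ/+)* replicate 3 (26.7%, beside 17.4%), a count chosen after seeing the data.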
